A study of Mus musculus with 16 samples.

Results

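The CC chemokines expressed by bone marrow-derived dendritic cells (BMDCs) were followed across 8 conditions. The group was defined by gene name, as *Ccl2*, *Ccl3*, *Ccl4*, *Ccl5*, *Ccl6*, *Ccl7*, *Ccl9*, *Ccl12*, *Ccl17* and *Ccl22*, and all 10 were found among the 23356 genes of the deposited expression table. RNA-seq was carried out on BMDCs of 4 genotypes on the C57BL/6 background, namely wild-type, *Tmem173*-/-, *Irf1*-/- and the double knockout *Irf3/7*-/-. The labels name no cell type to which a deletion was restricted. Marrow was cultured for 6 days in GM-CSF and IL-4 at 10 ng/ml each, so untreated cells (NT) also carried both cytokines. The treated cultures then received c-di-GMP, a bacterial cyclic dinucleotide, for 18 h, at 25 μg/ml in the sample labels and at 50 μg/ml in the legends of the study. There were 16 samples, 2 for each condition, from sex-matched mice aged 6 to 12 weeks.

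CC chemokines are small secreted proteins that attract leukocytes through seven-helix receptors. CCL2, CCL7 and CCL12 act through CCR2 on monocytes, and CCL6 and CCL9 through CCR1 on myeloid cells. CCL3, CCL4 and CCL5 are inflammatory chemokines that draw activated T cells, NK cells and monocytes. CCL17 and CCL22 are the ligands of CCR4, carried by helper and regulatory T cells, and are typical products of dendritic cells grown with IL-4. c-di-GMP is detected by STING, the protein encoded by *Tmem173*, which signals to interferon regulatory factors, among them the products of *Irf3* and *Irf7*, and to NF-κB.

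The members are in clusters of neighbouring genes in the GRCm38 build (GENCODE M21 annotation), and each is protein coding with 3 or 4 exons in its longest form. *Ccl2*, *Ccl7* and *Ccl12* occupied 67.8 kb of chromosome 11, from 82035571 to 82103400. The remaining 5 on that chromosome, *Ccl5*, *Ccl9*, *Ccl6*, *Ccl3* and *Ccl4*, lay between 83525778 and 83664683. *Ccl22* and *Ccl17* were neighbours on chromosome 8, from 94745590 to 94812036. No stretch of 35 bases, the read length, was shared between the transcripts of any pair of members. At most 3.35% of such stretches in a member, *Ccl9*, occurred in another gene. The locus of *Ccl6* overlapped that of *E230016K23Rik*, a row that reached 17 FPKM at most, and no other member overlapped another row.

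The sequence upstream of the start site is shown for 3 members, because the CCR4 ligands *Ccl17* and *Ccl22* were the members with the highest levels in untreated wild-type BMDCs and *Ccl12* was an induced CCR2 ligand at a low level. RefSeq promoter sequence (GRCm38.p6) was matched for 6 of the 10 members, *Ccl3*, *Ccl6*, *Ccl9*, *Ccl12*, *Ccl17* and *Ccl22*, and not for *Ccl2*, *Ccl4*, *Ccl5* or *Ccl7*. Each is written 5′ to 3′ on the plus strand, with motif matches in capitals. The *Ccl12* stretch is chr11:82101595-82101844, the *Ccl17* stretch is chr8:94810203-94810452, and the *Ccl22* stretch is chr8:94745434-94745589.
Ccl12: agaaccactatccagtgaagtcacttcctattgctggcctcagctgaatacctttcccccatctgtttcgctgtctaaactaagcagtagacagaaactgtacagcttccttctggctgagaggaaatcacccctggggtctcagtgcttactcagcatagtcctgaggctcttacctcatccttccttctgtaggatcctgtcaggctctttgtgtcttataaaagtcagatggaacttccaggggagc
Ccl17: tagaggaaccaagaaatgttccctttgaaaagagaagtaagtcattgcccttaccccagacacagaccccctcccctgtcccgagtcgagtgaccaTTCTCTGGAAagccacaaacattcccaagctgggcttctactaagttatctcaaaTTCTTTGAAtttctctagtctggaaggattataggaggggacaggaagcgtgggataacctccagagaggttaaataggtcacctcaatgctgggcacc
Ccl22: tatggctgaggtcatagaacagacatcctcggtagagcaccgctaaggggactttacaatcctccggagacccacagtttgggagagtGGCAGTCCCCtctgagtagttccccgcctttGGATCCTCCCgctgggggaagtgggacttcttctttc
Both strands of the 250 bases before the start site were searched for an NF-κB motif spelled GGGNNNNNCC, an IRF motif spelled GAAANNGAAA, a STAT6 motif spelled TTCNNNNGAA and a GAS motif, bound by STAT factors, spelled TTCNNNGAA. The last pair of spellings differ only in the length of the spacer, and none of the matches in capitals overlaps another. *Ccl17* held 1 STAT6 match, at bases -154 to -145 from its start site, and 1 GAS match, at -99 to -91. *Ccl22* held 2 NF-κB matches, at -162 to -153 and at -131 to -122, and *Ccl9* 1, at -35 to -26. Offsets count from the RefSeq start site, which for *Ccl22* is base 94745684, downstream of the GENCODE gene start at 94745590, and the *Ccl22* stretch is printed only up to the latter. The IRF motif was found in 0 of 6 member promoters, *Ccl12* included. Among 32851 promoters of the same length, 45.8% held the NF-κB motif, 2.98% the IRF motif, 5.85% the STAT6 motif and 7.02% the GAS motif. The matches describe these letters only and were not tested for binding.

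Expression was read as FPKM, a fragment count divided by transcript length and by library total, which allows levels to be set side by side between genes. The authors combined the 2 samples of each condition with Cuffdiff, so every level below is 1 pooled value with the bounds of the authors' confidence interval in parentheses. No spread between replicates could be taken, no p-value over replicates was computed, and depth cannot be read from FPKM. Intervals of these short transcripts are often not centred on the FPKM. A member was called higher or lower when it differed more than 2-fold on log2(FPKM + 0.1), had intervals that did not overlap, reached 1 FPKM in one of the conditions, and had the status OK in both. "Rose" and "fell" are used for such calls alone. For *Ccl22*, Cuffdiff gave the status HIDATA, which marks a locus with too many fragments to be processed, in c-di-GMP-treated wild-type, *Irf1*-/- and *Irf3/7*-/- BMDCs. Its listed value of 0 there is not a level, and *Ccl22* is treated as not measured in these conditions, which leaves 9 members for comparisons that involve them. At most 2 genes of the table carried this status in a condition.

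The labels and cell types were checked against their genes. *Tmem173* was at 8.97 and 7.49 FPKM in untreated and treated *Tmem173*-/- BMDCs against 77.0 to 118 FPKM in the other genotypes. *Irf1* was at 25.9 FPKM in untreated and 116 FPKM in treated *Irf1*-/- BMDCs, where wild-type BMDCs had 149 and 245 FPKM. Without treatment *Irf7* was at 1.07 FPKM in BMDCs labelled *Irf3/7*-/- against 15.2 FPKM in wild-type BMDCs, and *Irf3* at 7.74 against 19.9 FPKM. After treatment *Irf7* was at 4.97 FPKM in BMDCs labelled *Irf3/7*-/- against 687 FPKM in wild-type BMDCs. *Irf3* was then at 20.2 FPKM against 15.8 FPKM, so the *Irf3* level went against that label in the treated condition only. In *Tmem173*-/- BMDCs, without and with treatment, *Irf1* was at 24.1 and 23.3 FPKM and *Irf7* at 3.17 and 3.37 FPKM. Low levels of *Irf1* and *Irf7* were thus not particular to the genotypes labelled for them. These are levels of whole genes, and transcript left from undeleted exons cannot be told apart from intact transcript. Of 8 dendritic cell markers, 7 or 8 reached 1 FPKM in every condition, with *Cd74* between 3336 and 4983 FPKM and *Cd209a* at 0 in treated wild-type BMDCs. The summed level of 7 NK cell markers lay between 677 and 2171 FPKM in wild-type and *Irf3/7*-/- BMDCs, and between 3.75 and 28.9 FPKM in *Tmem173*-/- and *Irf1*-/- BMDCs. The 6 neutrophil markers measured summed to 13913 and 19260 FPKM in *Tmem173*-/- BMDCs and to 1364 to 3922 FPKM elsewhere. In bulk RNA, fewer cells of a type and less RNA per cell cannot be told apart.

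In untreated wild-type BMDCs the CCR4 ligands led. *Ccl17* was at 11439 FPKM (6583 to 13005), the 2nd highest level of all genes with the status OK, and *Ccl22* at 5771 FPKM (3582 to 7959). These intervals overlapped, and that of *Ccl22* lay above every member below it. *Ccl6*, *Ccl5*, *Ccl4*, *Ccl3* and *Ccl9* followed from 1110 to 405 FPKM, and neighbours in this order had overlapping intervals down to *Ccl2* at 279 FPKM (184 to 331). *Ccl7* at 65.2 FPKM (42.6 to 81.4) and *Ccl12* at 8.95 FPKM (4.82 to 11.1) stood apart from their neighbours. After c-di-GMP the first place among the members measured in wild-type BMDCs was taken by *Ccl5*, which stood apart from *Ccl17*, and *Ccl12* remained the lowest. *Ccl22* was not measured there, so its place after treatment is not known.

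**Figure D1:**
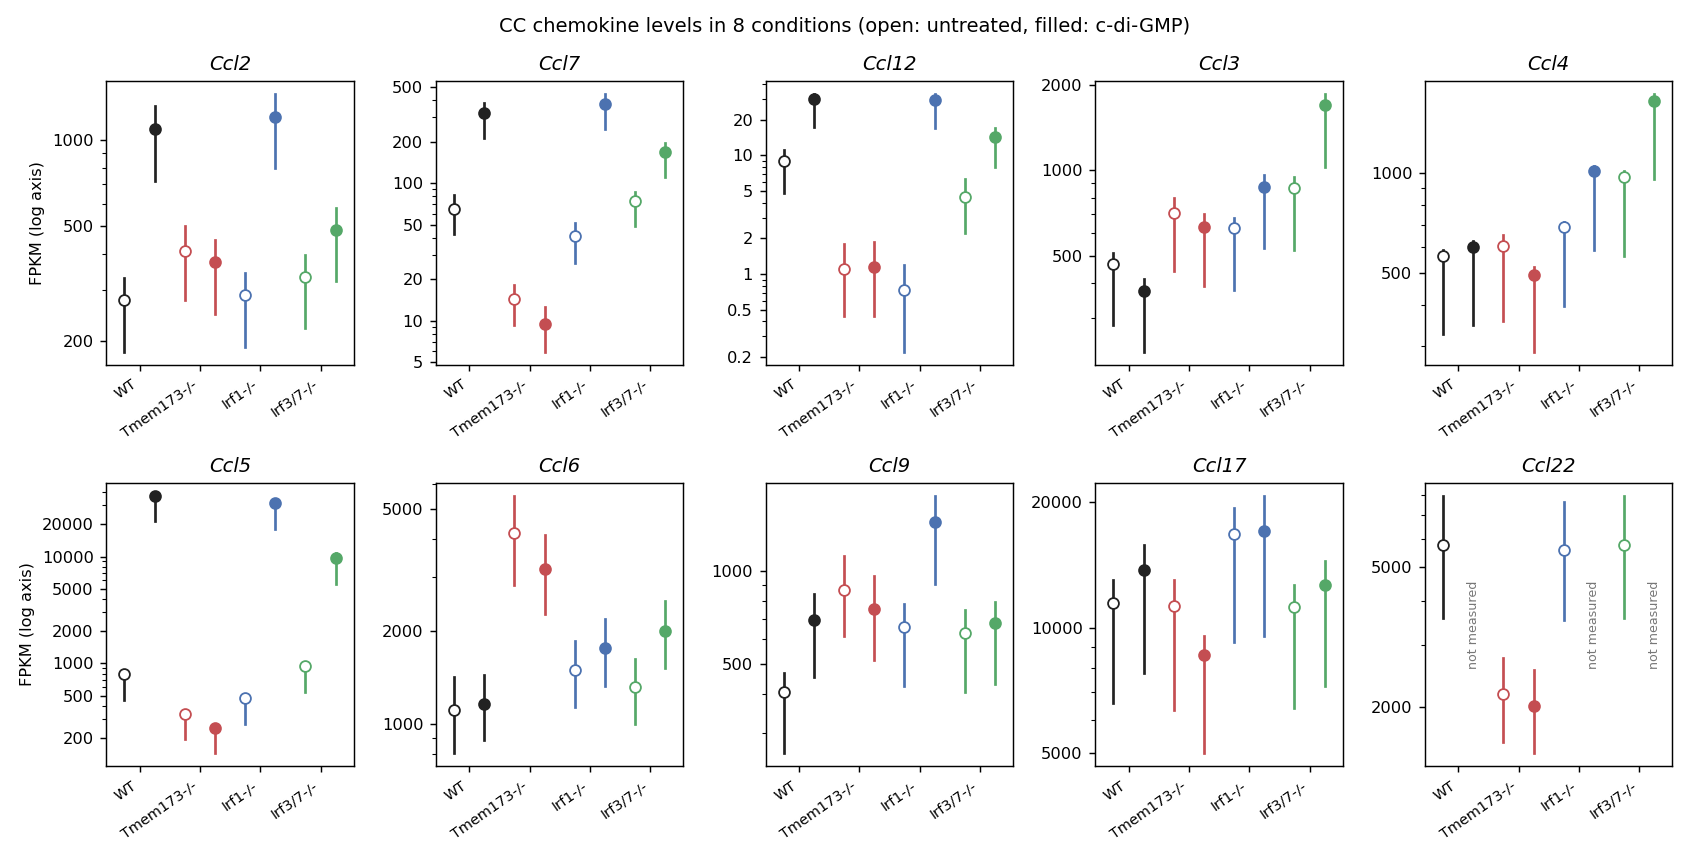
FPKM of the 10 chemokines (log axis, a panel for each gene with its own range) by genotype; open circles are untreated and filled circles c-di-GMP-treated BMDCs, each 1 value pooled by the authors from 2 samples, and lines are the authors' intervals. *Ccl5* runs from 248 to 36577 FPKM, whereas *Ccl17* stays between 8620 and 17101 FPKM; *Ccl22* was not measured in 3 treated conditions.

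The first comparison asked which chemokines c-di-GMP changed in wild-type BMDCs. *Ccl5* and the 3 CCR2 ligands rose, and no member fell. Called higher were 4 of the 9 members measured, against 10.5% of 11201 genes, and 0 were called lower, against 9.96%. The median log2 change was 0.77 over the 9 members and 0.00 over all genes tested.

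*Ccl5* encodes a chemoattractant of effector T cells, NK cells and monocytes. Its level was 796 FPKM (459 to 824) in untreated and 36577 FPKM (21537 to 37102) in treated wild-type BMDCs. The treated level was the 2nd highest of all genes with the status OK. The log2 change was 5.52 (combined interval, 4.95 to 6.10), or 46.0-fold. In *Irf1*-/- BMDCs it went from 478 FPKM (271 to 487) to 31790 FPKM (18124 to 34354), and in BMDCs labelled *Irf3/7*-/- from 954 FPKM (546 to 982) to 9788 FPKM (5493 to 10687). *Tmem173*-/- BMDCs held 339 FPKM (196 to 358) and 248 FPKM (144 to 256). Treated and untreated intervals were thus far apart in 3 genotypes and overlapped in *Tmem173*-/- BMDCs.

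*Ccl2*, the main attractant of CCR2-positive monocytes, went from 279 FPKM (184 to 331) to 1087 FPKM (721 to 1305) in wild-type BMDCs, a log2 change of 1.96 (1.36 to 2.57). In *Irf1*-/- BMDCs it went from 289 FPKM (191 to 344) to 1199 FPKM (795 to 1442). BMDCs labelled *Irf3/7*-/- had 335 FPKM (221 to 399) untreated and 484 FPKM (323 to 580) treated, and *Tmem173*-/- BMDCs had 412 FPKM (278 to 504) and 376 FPKM (249 to 447). Only the wild-type and *Irf1*-/- pairs had intervals apart for this gene.

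*Ccl7*, a further CCR2 ligand, which also binds CCR1 and CCR3, was at 65.2 FPKM (42.6 to 81.4) and 321 FPKM (212 to 381) in wild-type BMDCs, a log2 change of 2.30 (1.67 to 2.93). It was at 41.1 FPKM (26.4 to 51.6) and 375 FPKM (247 to 444) in *Irf1*-/-, and at 74.1 FPKM (48.5 to 86.4) and 167 FPKM (110 to 196) in BMDCs labelled *Irf3/7*-/-. In *Tmem173*-/- BMDCs the levels were 14.3 FPKM (9.36 to 18.1) and 9.44 FPKM (5.97 to 12.5). This genotype had the lowest *Ccl7* levels with and without treatment, and its pair of intervals overlapped.

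*Ccl12*, the mouse CCR2 ligand formerly known as MCP-5, had 8.95 FPKM (4.82 to 11.1) and 30.1 FPKM (17.4 to 33.0) in wild-type BMDCs, a log2 change of 1.74 (0.99 to 2.49). The levels in *Irf1*-/- BMDCs were 0.735 FPKM (0.223 to 1.19) and 29.3 FPKM (17.1 to 32.7). Those in BMDCs labelled *Irf3/7*-/- were 4.49 FPKM (2.23 to 6.31) and 14.4 FPKM (8.01 to 17.1). In *Tmem173*-/- BMDCs it stayed near 1 FPKM, at 1.12 (0.445 to 1.78) and 1.14 (0.445 to 1.85). Without treatment *Ccl12* was thus low in *Tmem173*-/- and *Irf1*-/- BMDCs, and after treatment it was lowest in *Tmem173*-/- BMDCs.

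The other members were not called in wild-type BMDCs. *Ccl9*, a CCR1 ligand, was at 405 FPKM (257 to 468) and 691 FPKM (454 to 842), with overlapping intervals and a log2 change of 0.77 (0.15 to 1.39). The changes of *Ccl3*, *Ccl4*, *Ccl6* and *Ccl17* lay between -0.32 and 0.27, and their combined intervals all included 0.

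In *Tmem173*-/- BMDCs 0 of the 10 members was called in either direction after c-di-GMP, against 0.046% of 10867 genes higher and 0.0092% lower. All 10 were measured here, since no status other than OK occurred. *Ccl22* was at 2172 FPKM (1587 to 2752) and 2010 FPKM (1472 to 2547). The log2 changes of the 10 lay between -0.59, for *Ccl7*, and 0.03, for *Ccl12*, with a median of -0.25 against -0.02 over all genes.

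In *Irf1*-/- BMDCs 5 of 9 members rose and 0 fell, against 9.67% and 7.81% of 11164 genes. *Ccl5* changed by 6.06 on the log2 scale (5.43 to 6.68), *Ccl12* by 5.14 (4.04 to 6.24), *Ccl7* by 3.19 (2.55 to 3.83) and *Ccl2* by 2.05 (1.45 to 2.65). *Ccl9* was also called, at 660 FPKM (424 to 782) and 1439 FPKM (903 to 1744), a change of 1.12 (0.48 to 1.77). The treated levels of the 3 CCR2 ligands and *Ccl5* in this genotype had intervals overlapping those of treated wild-type BMDCs.

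In BMDCs labelled *Irf3/7*-/-, 3 of 9 members rose and 0 fell, against 10.2% and 7.68% of 11283 genes. *Ccl5* changed by 3.36 with a combined half-width of 0.64, *Ccl12* by 1.66 (0.75 to 2.57) and *Ccl7* by 1.17 (0.59 to 1.76). *Ccl2* was not called, with overlapping intervals and a change of 0.53 (-0.06 to 1.13). *Ccl3*, an inflammatory chemokine that binds CCR1, was at 864 FPKM (524 to 944) and 1696 FPKM (1024 to 1861), with intervals apart but a 1.96-fold change, just under the threshold.

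Set against the wild-type log2 change, BMDCs labelled *Irf3/7*-/- kept 27.2% for *Ccl2*, 51.0% for *Ccl7*, 60.8% for *Ccl5* and 95.6% for *Ccl12*. *Irf1*-/- BMDCs had 104% for *Ccl2*, 110% for *Ccl5*, 139% for *Ccl7* and 295% for *Ccl12*, the last from an untreated level of 0.735 FPKM. For *Ccl2*, *Ccl5* and *Ccl7* in *Irf1*-/- BMDCs, and for *Ccl12* in those labelled *Irf3/7*-/-, the change did not differ from the wild-type change by more than the combined interval. These percentages therefore show neither a stronger induction nor one exactly kept. All knockouts were compared with the same wild-type pair.

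**Figure D2:**
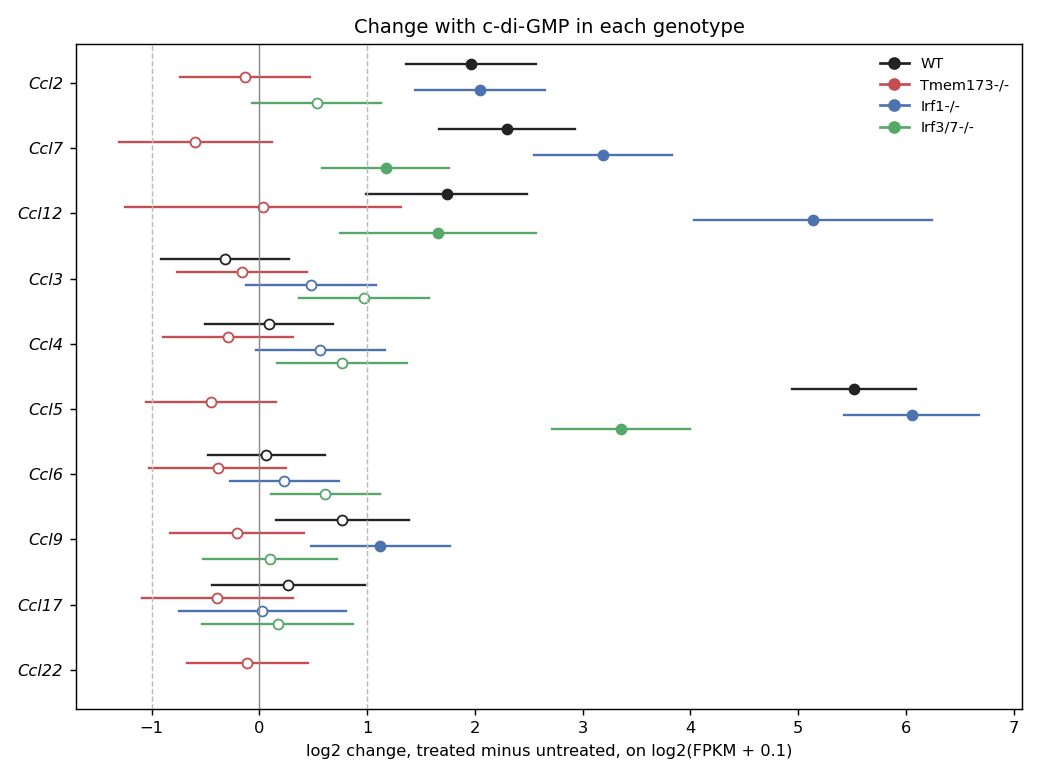
Log2 change with c-di-GMP within each genotype, on log2(FPKM + 0.1), for each chemokine; lines combine the authors' intervals of both conditions, filled circles are called and open circles not, and dashed lines mark 2-fold. *Ccl5* lies at 5.52 in wild-type, 6.06 in *Irf1*-/-, 3.36 in *Irf3/7*-/- and -0.45 in *Tmem173*-/- BMDCs.

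The treated knockouts were next compared with treated wild-type BMDCs. In treated *Tmem173*-/- BMDCs 4 of 9 members were lower and 1 was higher, against 13.5% and 12.9% of 11318 genes. *Ccl5* was lower by 147-fold, with a log2 difference of -7.20 (-7.77 to -6.63). The differences of *Ccl7*, *Ccl12* and *Ccl2* were -5.07 (-5.75 to -4.40), -4.60 (-5.63 to -3.57) and -1.53 (-2.13 to -0.93). *Ccl6*, a CCR1 ligand of myeloid cells, was higher by 1.45 with a combined half-width of 0.55, at 3185 FPKM (2280 to 4091) against 1162 FPKM (885 to 1439).

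In treated *Irf1*-/- BMDCs 2 of 9 members were higher and 0 lower than in wild-type BMDCs, against 2.65% and 4.91% of 11079 genes. *Ccl3* was at 876 FPKM (533 to 962) against 375 FPKM (229 to 412), a log2 difference of 1.22 (0.62 to 1.82), and *Ccl9* was higher by 2.08-fold, at 1439 FPKM against 691 FPKM. The differences of the induced members *Ccl2*, *Ccl7*, *Ccl12* and *Ccl5* were between -0.20 and 0.22, with combined intervals that included 0 and did not reach past -0.81 or 0.82.

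In treated BMDCs labelled *Irf3/7*-/- the inflammatory members *Ccl3*, *Ccl4* and *Ccl5* parted. *Ccl5* was lower by 3.74-fold, with a log2 difference of -1.90 (-2.52 to -1.28), whereas *Ccl3* was higher by 4.52-fold, with 2.18 (1.57 to 2.78). *Ccl4*, which encodes MIP-1β, was at 1652 FPKM (959 to 1739) against 598 FPKM (348 to 625), a difference of 1.47 (0.86 to 2.07). *Ccl2* and *Ccl12* were lower by 2.24-fold and 2.09-fold. In all, 2 of 9 members were higher and 3 lower, against 4.61% and 2.69% of 11209 genes. *Ccl7*, at -0.94, and *Ccl6*, at 0.79, had intervals apart from wild-type BMDCs but lay within 2-fold.

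The markers of other cells differed here as well. The 7 NK cell markers summed to 2171 FPKM in treated BMDCs labelled *Irf3/7*-/- and to 677 FPKM in treated wild-type BMDCs, most of it *Gzmb* (1242 and 336 FPKM) and *Gzma* (900 and 329 FPKM), with *Ncr1* at 0.661 and 0.290 FPKM. The 8 basophil and mast cell markers summed to 262 and 84.7 FPKM, with *Mcpt8* at 74.0 and 24.5 FPKM. The 7 T cell markers measured summed to 196 and 73.7 FPKM, with *Cd3e* at 23.3 and 5.41 FPKM. T cells, NK cells, mast cells and basophils can make *Ccl3* and *Ccl4*, and the part of these cells in the result was not tested. In treated *Irf1*-/- BMDCs, where *Ccl3* was also called higher, the same NK cell markers summed to 28.9 FPKM, with *Ncr1* at 0, the basophil and mast cell markers to 93.7 FPKM and the T cell markers to 56.0 FPKM.

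**Figure D3:**
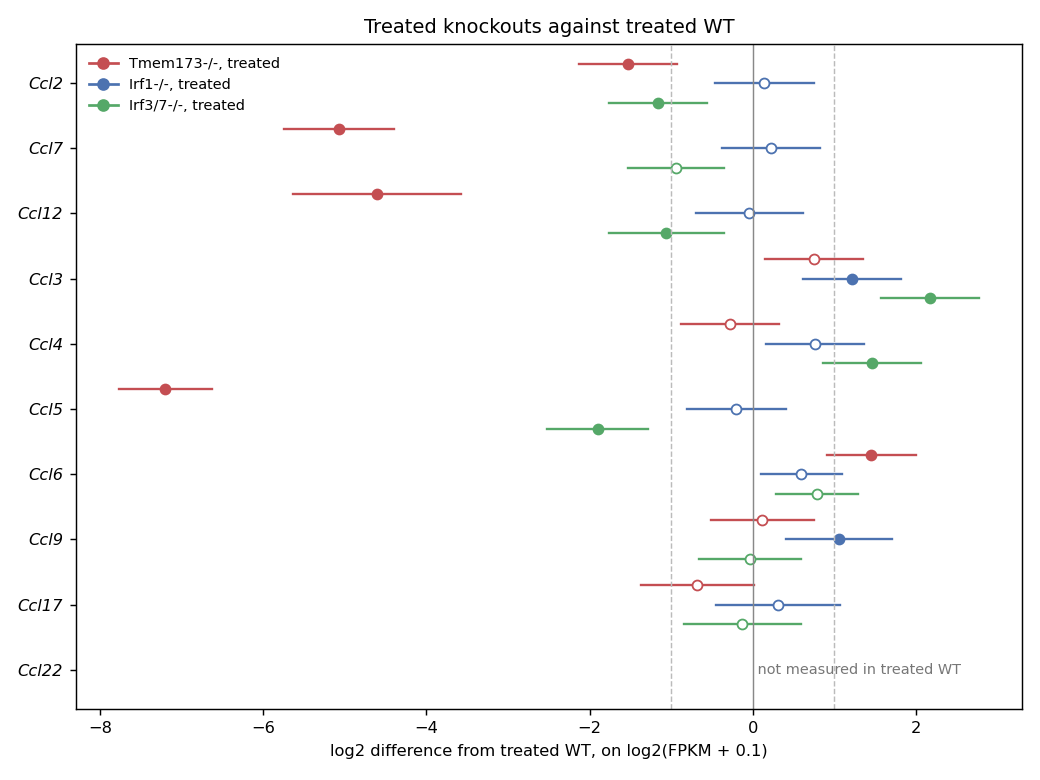
Log2 difference of each treated knockout from treated wild-type BMDCs, on log2(FPKM + 0.1); lines combine the authors' intervals, filled circles are called, open circles not, and dashed lines mark 2-fold. In BMDCs labelled *Irf3/7*-/-, *Ccl3* (2.18) and *Ccl4* (1.47) lie to the right and *Ccl5* (-1.90) to the left, while in *Tmem173*-/- BMDCs *Ccl5*, *Ccl7* and *Ccl12* lie furthest left.

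A direct comparison of the treated factor knockouts showed *Ccl5*, *Ccl2*, *Ccl7* and *Ccl9* higher in *Irf1*-/- BMDCs than in those labelled *Irf3/7*-/-. The log2 differences were 1.70 (1.03 to 2.37), 1.31 (0.71 to 1.91), 1.16 (0.57 to 1.76) and 1.09 (0.44 to 1.74). With 0 lower, these were 4 of 9 members against 3.22% of 11235 genes higher and 6.62% lower. *Ccl12* differed by 1.02 with overlapping intervals and was called by the fold change alone, by the z from the intervals and with intervals centred on the FPKM, and *Ccl3*, at -0.95 (-1.56 to -0.35), had intervals apart within 2-fold.

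Among untreated BMDCs the *Tmem173*-/- genotype stood out. Called lower were 4 of its 10 members, *Ccl12*, *Ccl7*, *Ccl22* and *Ccl5*, and 2 were higher, *Ccl6* and *Ccl9*, against 5.95% and 5.04% of 11101 genes. The falls from wild-type levels were -2.90 (-3.97 to -1.83) on the log2 scale for *Ccl12*, -2.18 (-2.85 to -1.52) for *Ccl7*, -1.41 (-2.11 to -0.71) for *Ccl22* and -1.23 (-1.84 to -0.62) for *Ccl5*. *Ccl22* was thus at 2172 FPKM (1587 to 2752) in this genotype, apart from the *Irf1*-/- level of 5585 FPKM (3515 to 7646) and the *Irf3/7*-/- level of 5743 FPKM (3571 to 7916). Its neighbour *Ccl17* was not called, at 11295 FPKM (6331 to 13020) against 11439 FPKM in wild-type BMDCs, a difference of -0.02 (-0.73 to 0.70). NK cell markers summed to 3.98 FPKM in untreated *Tmem173*-/- against 687 FPKM in untreated wild-type BMDCs, and T cell markers to 17.5 against 138 FPKM. In untreated *Irf1*-/- BMDCs, where *Ccl5* was not called, these sums were 17.9 and 63.7 FPKM. The part of these cells in the lower levels, with or without treatment, was not tested.

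*Ccl6* was at 4168 FPKM (2830 to 5510) in untreated *Tmem173*-/- against 1110 FPKM (804 to 1417) in untreated wild-type BMDCs, a difference of 1.91 (1.28 to 2.54). *Ccl9* was at 864 FPKM (615 to 1111) against 405 FPKM, a difference of 1.09 (0.49 to 1.70). Across all 8 conditions *Ccl6* was highest in the *Tmem173*-/- pair, although the interval of its treated member overlapped that of treated BMDCs labelled *Irf3/7*-/-. Neutrophil markers were high in the same conditions, with *S100a8* at 10351 FPKM against 2531 FPKM and *Elane* at 40.8 against 2.45 FPKM, all 6 reaching 1 FPKM. The 9 macrophage markers measured summed to 608 FPKM against 270 FPKM. Neutrophils and macrophages can make *Ccl6* and *Ccl9*, and the part of these cells was not tested. In treated *Irf1*-/- BMDCs, which had the highest *Ccl9* level, the neutrophil markers summed to 1364 FPKM and the macrophage markers to 179 FPKM, the lowest sums of the 8 conditions.

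In untreated *Irf1*-/- BMDCs *Ccl12* alone was called, with a log2 difference of -3.44 (-4.60 to -2.28), 1 of 10 members against 3.52% of 11017 genes lower and 1.26% higher. In untreated BMDCs labelled *Irf3/7*-/-, 0 of 10 members was called, against 1.17% of 11004 genes higher and 0.863% lower. The largest difference there was that of *Ccl12*, at -0.98 (-1.92 to -0.04) with overlapping intervals. *Ccl3* was at 864 FPKM (524 to 944) against 468 FPKM (284 to 509), with intervals apart and a difference of 0.89 (0.29 to 1.48).

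**Figure D4:**
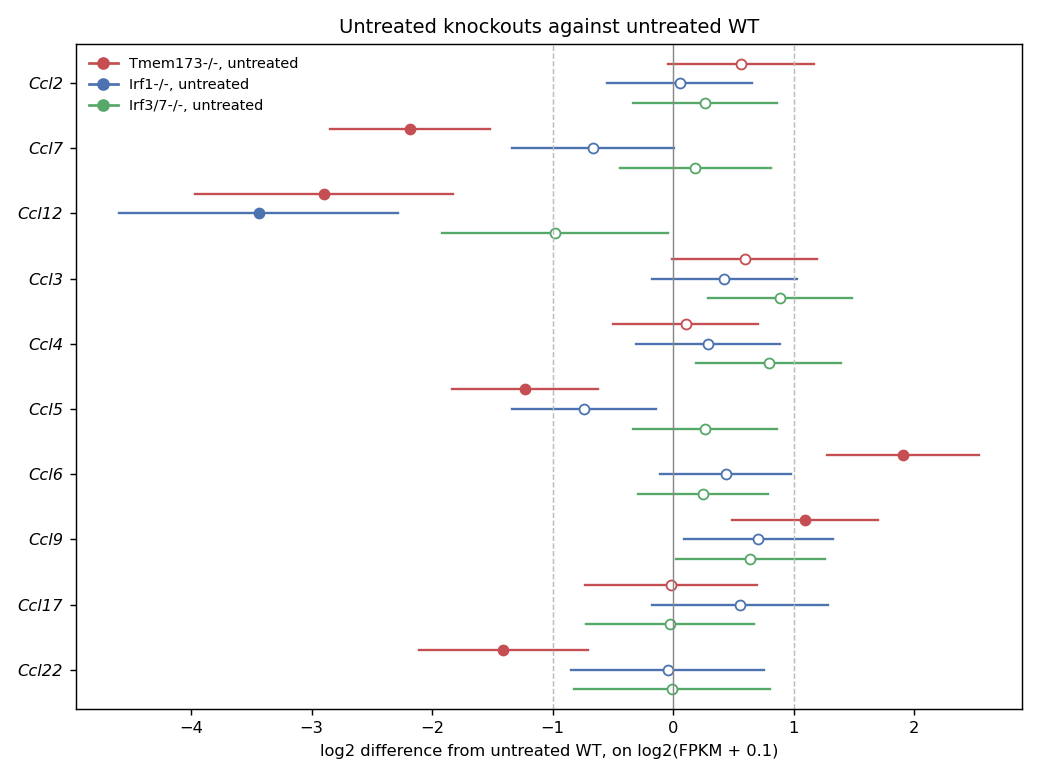
Log2 difference of each untreated knockout from untreated wild-type BMDCs, on log2(FPKM + 0.1); lines combine the authors' intervals, filled circles are called, open circles not, and dashed lines mark 2-fold. In *Tmem173*-/- BMDCs *Ccl12*, *Ccl7*, *Ccl22* and *Ccl5* lie left and *Ccl6* and *Ccl9* right, and in *Irf1*-/- BMDCs *Ccl12* (-3.44) is the one filled point.

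The 9 members measured everywhere were summed, leaving out *Ccl22*, to give the share of CC chemokine transcripts that each group held. In untreated wild-type BMDCs *Ccl17* held 75.6% of 15132 FPKM and *Ccl3*, *Ccl4* and *Ccl5* together 12.1%. After c-di-GMP the sum was 54623 FPKM, of which *Ccl3*, *Ccl4* and *Ccl5* held 68.7% and *Ccl17* 25.2%. The level of *Ccl17* itself was 13781 FPKM (7791 to 15825) then, not called against 11439 FPKM, so its share was lower while its level was not called. The share of these 3 genes in treated *Irf1*-/- BMDCs was 60.6%, that in treated BMDCs labelled *Irf3/7*-/- 45.1%, and that in treated *Tmem173*-/- BMDCs 9.59%.

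The CCR1 ligands held 27.3% and 27.5% in untreated and treated *Tmem173*-/- BMDCs and at most 11.9% in any other condition. The CCR2 ligands held between 1.57% and 2.88% in every condition, although their summed level went from 353 to 1438 FPKM in wild-type BMDCs. With *Ccl5* left out of the sum, they held 2.46% in untreated and 7.97% in treated wild-type BMDCs, and 1.61% and 6.74% in *Irf1*-/- BMDCs. Shares of one total are tied to each other, and a rise of *Ccl5* lowers every other share.

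**Figure D5:**
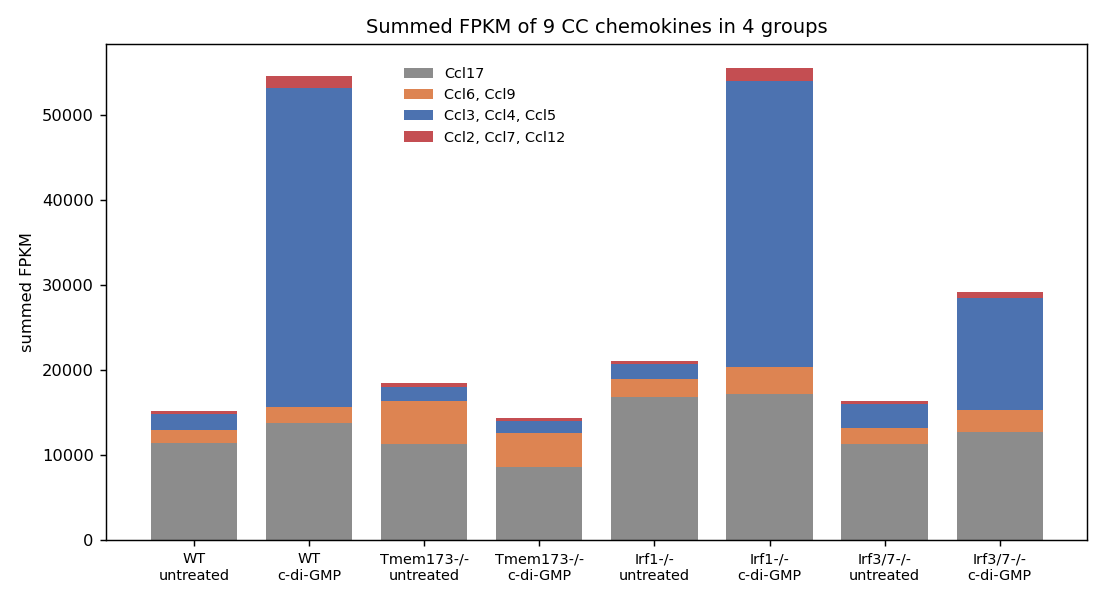
Summed FPKM of 9 CC chemokines (linear axis from 0) in each condition, stacked in 4 groups; each bar is a sum of pooled values, with no error given. The block of *Ccl3*, *Ccl4* and *Ccl5*, mostly *Ccl5* in treated wild-type BMDCs, is 37551 FPKM in treated wild-type BMDCs and 1373 FPKM in treated *Tmem173*-/- BMDCs.

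Within these groups the members kept unequal ratios. The *Ccl2* level was 2.90 to 7.04 times that of *Ccl7* in wild-type, *Irf1*-/- and *Irf3/7*-/- BMDCs, and 28.8 and 39.8 times in untreated and treated *Tmem173*-/- BMDCs, with *Ccl7* at 14.3 and 9.44 FPKM there. *Ccl3* and *Ccl4*, adjacent genes, stayed between 0.627 and 1.28 of each other in all conditions. The *Ccl6* to *Ccl9* ratio was highest in *Tmem173*-/- BMDCs, at 4.82 and 4.25, and lowest in treated *Irf1*-/- BMDCs, at 1.22. As a description over the 8 conditions, which share the treatment and genotypes, the Pearson r of log2(FPKM + 0.1) was 0.94 between *Ccl5* and *Ccl7*, 0.92 between *Ccl5* and *Ccl12*, and 0.88 between *Ccl3* and *Ccl4*, but 0.12 between *Ccl3* and *Ccl5*.

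Among 7382 other genes with at least 10 FPKM in a condition, those whose pattern was most like that of *Ccl5* over the 8 conditions were *Fbxw17* (r = 0.997) and *Gltpd1* (0.996). For *Ccl12* they were *Asb13* (0.990) and the interferon-induced *Oasl2* (0.984), for *Ccl7* *Chmp7* (0.993) and *Frmd8* (0.992), and for *Ccl2* *Gas2l1* (0.991) and *Dok1* (0.991). *Ccl3* was followed most closely by *Gss* (0.975) and *Mmp13* (0.937). *Ccl4* was nearest to the integrin gene *Itga2b* (0.967) and to *Cpa3* (0.924), a carboxypeptidase gene among the basophil and mast cell markers. *Ccl6* was nearest to *Mapk3* (0.988) and *Lat2* (0.987), *Ccl9* to *Hexim1* (0.932) and *Ccdc32* (0.928), and *Ccl17* to *Elp5* (0.944) and *Plin3* (0.921). *Ccl22*, with 5 measured conditions, was not compared. With so many genes and so few conditions, high r values are common. The r also takes no account of the size of a change. *Chmp7* lay between 11.9 and 18.1 FPKM, where *Ccl7* lay between 9.44 and 375 FPKM. *Fbxw17* lay between 7.69 and 27.02 FPKM, where *Ccl5* lay between 248 and 36577 FPKM. The range of *Oasl2* was the wider one, at 2.43 to 323 FPKM against 0.735 to 30.1 FPKM for *Ccl12*. A high r thus does not show that a gene changed as much as the member.

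Of the other CC chemokines, 4 of 13 listed genes were tested in wild-type BMDCs, of which 1 rose and 2 fell, against 10.5% and 9.96% of all genes. *Ccl24*, the eotaxin-2 gene, fell from 746 to 327 FPKM with c-di-GMP and was at 1.97 and 1.64 FPKM in *Tmem173*-/- BMDCs. *Ccl1*, a CCR8 ligand, fell from 14.3 to 0.427 FPKM in wild-type BMDCs. *Ccl8*, a neighbour of *Ccl12* on chromosome 11, rose from 0.312 to 8.67 FPKM in wild-type BMDCs and was at 22.7 FPKM in treated *Irf1*-/- BMDCs, called higher by 1.38 on the log2 scale.

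The list of receptors of these chemokines also held the atypical *Ccrl2*. Of its 10 names 8 were in the table and 5 were tested in wild-type BMDCs, 1 rising, which was *Ccrl2*, and 1 falling. The shares over all genes were 10.5% and 9.96%. *Ccr2* fell from 135 to 6.62 FPKM while its ligands rose, and *Ccrl2*, an atypical receptor that binds chemerin, rose from 5.00 to 104 FPKM. In treated *Irf1*-/- BMDCs *Ccr2* was at 60.5 FPKM, higher than in wild-type BMDCs by 3.17 on the log2 scale, and *Ccrl2* was at 18.8 FPKM, with a difference of -2.46. In *Tmem173*-/- BMDCs *Ccr2* was at 233 and 249 FPKM without and with treatment. *Ccr1* was not called in any genotype after c-di-GMP, with wild-type levels of 72.7 and 109 FPKM.

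Genes of the pathways upstream were counted by the same call. Over all genes tested, 10.5% rose in wild-type, 9.67% in *Irf1*-/-, 10.2% in *Irf3/7*-/- and 0.046% in *Tmem173*-/- BMDCs, and 9.96% fell in wild-type BMDCs. Of 10 interferon-induced genes, 9 rose in wild-type, 10 in *Irf1*-/-, 9 in *Irf3/7*-/- and 0 in *Tmem173*-/- BMDCs. *Isg15* was at 2262, 2308, 1339 and 7.99 FPKM in treated wild-type, *Irf1*-/-, *Irf3/7*-/- and *Tmem173*-/- BMDCs. The list did not share one order of the genotypes, as *Rsad2* was at 362 FPKM in treated *Irf1*-/- and 518 FPKM in treated *Irf3/7*-/- BMDCs. Of 10 NF-κB subunits and feedback inhibitors, 4 rose in wild-type, 4 in *Irf1*-/-, 6 in *Irf3/7*-/- and 0 in *Tmem173*-/- BMDCs. *Nfkbiz*, an NF-κB cofactor, stood out in treated BMDCs labelled *Irf3/7*-/- at 22.3 FPKM against 6.71 FPKM in wild-type BMDCs. The difference was 1.72, in the same condition in which *Ccl3* and *Ccl4* were high. *Nfkbiz* was the 1 gene of the 10 called in that comparison, against 4.61% of all genes higher and 2.69% lower. A link to these chemokines was not tested. In treated *Irf1*-/- BMDCs, where *Ccl3* was also called higher, *Nfkbiz* was at 4.04 FPKM. The list of IL-4 and STAT6 response genes had 10 of 12 members tested in wild-type BMDCs, of which 0 rose and 3 fell, among them *Mgl2*, from 1115 to 184 FPKM, whereas *Ccl17* was not called. In untreated *Tmem173*-/- BMDCs 4 of 10 tested genes of this list were lower and 1 higher than in wild-type BMDCs, against 5.95% and 5.04% of all genes. *Arg1* was at 20.2 against 549 FPKM there, beside the lower *Ccl22* and the *Ccl17* level that was not called.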

How the data were processed

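RNA was prepared as stranded mRNA libraries and read from both ends at 35 bp. The authors combined the 2 samples of each condition with Cuffdiff (version 1.06 in the submitters' notes, 1.05 in the methods) and deposited a gene table that holds 1 FPKM per condition, a lower and an upper confidence bound, and a status. For the aligner, the annotation and the strand setting of Cuffdiff, nothing was given in the sources used here. Submitters' notes name mm9, but the loci of 21454 of 21681 matched symbols overlapped the same gene in GRCm38, which gives the positions here. The columns named with TM173 and GDP were read as treated *Tmem173*-/- BMDCs. Another 4 columns, of a knockout outside these conditions, were not used.

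FPKM values were transformed as log2(FPKM + 0.1). Comparisons, 11 in all, used the call described in the text. Half-widths of log2 intervals were combined in quadrature. The call was tested on simulated data. Shares were planned over 10 members and computed over 9, since *Ccl22* was not measured in 3 conditions. A receptor of the planned list is not reported here. Named genes were the 10 members, the targeted genes, called genes of the fixed lists with the largest wild-type changes, and the 2 genes most like each member in pattern; marker genes, *Ccr1*, *Nfkbiz*, *Isg15*, *Arg1* and *Mgl2* were named as examples after their values were seen. The members and lists were chosen with earlier results of these data known. Settings tried were a pseudocount of 1 or 0.01 FPKM, no minimum or a minimum of 5 FPKM, a 1.5-fold or 4-fold threshold, median centring of the conditions, the fold change or the intervals alone, and a z from the intervals with q under 0.05. Intervals centred on the FPKM were added after seeing the data. Versions were matplotlib 3.10.9, scipy 1.17.1, pandas 2.3.3, numpy 2.4.6 and python 3.11.15.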

Additional observations from a re-analysis of the deposited data

Results flagged for a closer look

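The change with c-di-GMP differed between a knockout and wild-type BMDCs, by more than the combined interval of the 4 conditions, for 10 of 27 pairs of a member and a knockout. The share of all genes beyond such an interval was not computed, so the count has no reference. The comparison uses pooled values and is no test over replicates. In *Tmem173*-/- BMDCs the log2 change minus that of wild-type BMDCs was -5.97 for *Ccl5*, -2.89 for *Ccl7*, -2.09 for *Ccl2*, -1.71 for *Ccl12* and -0.98 for *Ccl9*. In *Irf1*-/- BMDCs it was 3.40 for *Ccl12*, whose treated levels were 29.3 and 30.1 FPKM in *Irf1*-/- and wild-type BMDCs, so the difference lay in the untreated levels of 0.735 and 8.95 FPKM. In BMDCs labelled *Irf3/7*-/- it was -2.16 for *Ccl5*, -1.43 for *Ccl2* and -1.12 for *Ccl7*, and 1.29 for *Ccl3*. The 3 knockouts were set against the same wild-type pair.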

How the results depend on the processing

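No paired analysis was possible because the deposited table holds 1 value per condition, pooled over the replicates, and leaving out a replicate was not run for the same reason. Of the 35 calls of a member in a comparison, all 35 held under every setting tried other than the 4-fold threshold, under which 14 of the 35 held, and 0 changed direction. The 1.5-fold threshold, no minimum, the fold change alone and the intervals alone only loosen the call. No call could be lost or reversed under these settings, so they do not measure how firm the calls are. At 4-fold, c-di-GMP changed 2 members in wild-type BMDCs and 1 in those labelled *Irf3/7*-/-, and calls numbered 3 in treated *Tmem173*-/-, 0 in treated *Irf1*-/- and 1 in treated *Irf3/7*-/- BMDCs against wild-type, 2 in untreated *Tmem173*-/- BMDCs, and 0 between treated *Irf1*-/- and *Irf3/7*-/- BMDCs. In untreated *Irf3/7*-/- BMDCs 1 member, *Ccl3*, was called higher with a 1.5-fold threshold, and 1 with the intervals alone. Shares of all genes were computed for the 2-fold call only, so the counts of members under other settings have no such reference. The 27 differences of induction between genotypes moved by less than their combined interval under each pseudocount and under centring. Without *Ccl5*, the share held by *Ccl3* and *Ccl4* was 7.18% in untreated and 5.39% in treated wild-type BMDCs. The untreated and treated shares were then 7.24% and 7.99% for *Tmem173*-/-, 6.39% and 7.95% for *Irf1*-/-, and 11.9% and 17.3% for *Irf3/7*-/- BMDCs. Depth is unknown, the intervals rest on 2 samples that cannot be compared here, and their combined half-width, mostly near 0.6 on the log2 scale for a comparison of members, limits which changes can be seen.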
